A study of Mus musculus with 6 samples.

Results

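The circadian clock genes described here are 10 core and output genes of the mammalian molecular clock, Arntl, Clock, Per1, Per2, Per3, Cry1, Cry2, Nr1d1, Nr1d2 and Dbp. They were taken by symbol from the 55367 gene symbols of each count file. Of the 10, 9 had counts, and 7 passed the filter on low counts (filterByExpr of edgeR). RNA was measured in 6 bulk libraries of acinar cells, which secrete digestive enzymes, from mouse pancreas, and all 6 form 1 group with no control. Each was made from 300 GFP-positive cells sorted from pancreas, by a Smart-seq2 protocol that copies full-length RNA with added amplification. The mice carried Pdx1-Cre, a Cre line active in pancreatic progenitors, and Klf5-mCherry-CreERT2, and they were untreated. The genotype label names no GFP reporter. Age, sex and the time of day of collection are not given in the sources used here, nor whether any libraries share an animal. P-values thus measure only the spread between these samples, which may be technical.

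In the clock, ARNTL (BMAL1) and CLOCK form a dimer that binds E-box motifs and switches on the Per, Cry, Nr1d and Dbp genes. PER and CRY proteins then block the dimer, and the REV-ERB receptors encoded by Nr1d1 and Nr1d2 repress Arntl through motifs that ROR receptors also bind. Over a day in mouse tissues, the transcripts of Dbp, Nr1d1, Nr1d2 and the Per genes therefore peak in opposite phase to Arntl, with Cry1 later than the Per genes. The exocrine pancreas has such a clock, which is set partly by feeding.

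Motifs of the kinds just named were looked for in the promoters of the members. The promoter table (RefSeq, build GRCm38.p6, 250 bases before and 50 after each start) held 13 windows for 9 of the 10 members, all but Per2. The canonical E-box CACGTG, which reads the same on both strands, was found in 1 window of Per1 (chr11:69098699-69098998, plus strand), 166 bases before the start, and in that of Cry1 (chr10:85185005-85185304, minus strand), 60 bases before it. The ROR motif core AGGTCA was found in 1 window of Arntl (chr7:113207261-113207560, plus strand), 31 bases after the start. They are shown 5′ to 3′ because they hold the E-box or the ROR motif core of members the results turn on. Capitals mark the E-box in Per1 and Cry1 and AGGTCA in Arntl, and the TGACCT of the Per1 window, 137 bases before the start, is left in lower case.
Per1: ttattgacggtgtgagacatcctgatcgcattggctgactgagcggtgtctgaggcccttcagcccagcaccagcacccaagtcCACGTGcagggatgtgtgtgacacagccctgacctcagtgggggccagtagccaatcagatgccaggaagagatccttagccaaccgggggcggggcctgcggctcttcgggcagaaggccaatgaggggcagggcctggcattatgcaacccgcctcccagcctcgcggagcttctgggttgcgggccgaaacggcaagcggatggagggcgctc
Cry1: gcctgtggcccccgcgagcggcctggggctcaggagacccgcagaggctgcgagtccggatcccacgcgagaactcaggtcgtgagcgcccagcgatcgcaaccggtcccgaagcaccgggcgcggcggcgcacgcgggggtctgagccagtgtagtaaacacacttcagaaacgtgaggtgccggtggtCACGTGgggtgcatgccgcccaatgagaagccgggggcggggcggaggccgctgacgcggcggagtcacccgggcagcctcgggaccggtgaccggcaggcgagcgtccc
Arntl: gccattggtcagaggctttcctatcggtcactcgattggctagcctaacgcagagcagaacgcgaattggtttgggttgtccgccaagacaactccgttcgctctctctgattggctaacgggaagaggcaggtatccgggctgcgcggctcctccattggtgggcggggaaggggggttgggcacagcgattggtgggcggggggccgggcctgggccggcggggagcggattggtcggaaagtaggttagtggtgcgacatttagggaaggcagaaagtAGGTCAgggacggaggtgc
Of all 32851 promoter windows, 7.15% held the E-box and 16.3% held AGGTCA or its reverse TGACCT, so a match is a description and not a binding site. AGGTCA was also in the window of Nr1d2, and TGACCT in 1 window each of Clock and Per1. The D-box TTATGTAA, the motif of DBP and its relatives, was searched with its reverse TTACATAA. It occurred at 205 and at 158 bases before the start of Per3, and 0.938% of all windows held it. The windows of Dbp, Cry2 and Nr1d1 held none of these letters.

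Facts of the libraries bear on each value. Total counts were 4670819 to 7072270 per library. The names of replicates 4 to 6 (set B) carry a different number from those of replicates 1 to 3 (set A), and the sources used here do not say what it stands for. All 7 acinar markers checked had 1 TPM or more (counts per exon length, scaled to the same sum over all genes in every library), and they summed to 60541 to 96824 TPM in set B and 161389 to 196126 TPM in set A. The 7 endocrine markers summed to 38.0 to 2224.5 TPM in set B and 9.09 to 39.4 TPM in set A. Olfactory and vomeronasal receptor genes, silent in the pancreas and used as a measure of background, had 348 counts per Mb in replicate 5, 56.2 and 118 in replicates 4 and 6, and 28.3 to 41.6 in set A. Replicate 5 thus stands apart. Ribosomal RNA genes took 59.9 to 60.9% of the counts in set B and 38.1 to 46.8% in set A.

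How the authors' counting treated overlapping genes decided which members could be measured. Counts cover whole gene spans, and all 1232 protein-coding genes whose span lies wholly inside other genes had 0 counts in every library, against 11.0% of 11879 genes free of overlap. Per3 (chromosome 4, 151003652 to 151044665, build mm10), a period gene, lies wholly inside Camta1 and is listed at 0 in every library. No absence is read from it. Cry2 (chromosome 2, 92403646 to 92434043), a cryptochrome gene, keeps 39.4% of its exon bases outside D930015M05Rik. Nr1d1 (chromosome 11, 98767932 to 98775333) shares 1075 bp of its end with Thra, and 84.1% of its exon bases are free. Dbp (chromosome 7, 45705088 to 45710203) shares 737 bp of its end with Sphk2, and 82.0% are free. Arntl (chromosome 7, 113207465 to 113314126), Clock (chromosome 5, 76209868 to 76304792), Per1 (chromosome 11, 69095217 to 69109960), Per2 (chromosome 1, 91415982 to 91459324), Cry1 (chromosome 10, 85131700 to 85185064) and Nr1d2 (chromosome 14, 18204054 to 18239127) kept 98.4% or more of theirs.

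Per exon length, Per1 and the activators had the highest levels, and the output gene Dbp was close to the lower limit of these libraries. Per whole gene span Per1 was still highest, at 1.89 TPM, but Nr1d1 at 0.563 TPM lay above Clock at 0.492 and Arntl at 0.213 TPM. Of the 10 members 4 averaged 1 TPM or more, and 32.2% of 21950 nuclear protein-coding genes did so. Without replicate 5 the same 4 genes, Per1, Clock, Arntl and Cry1, were at 3.63, 2.17, 2.12 and 1.04 TPM.

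Arntl, which encodes the BMAL1 partner of the activating dimer, had 2.19, 2.01, 1.99, 2.32, 1.49 and 2.11 TPM in replicates 1 to 6, from 73, 50, 56, 59, 24 and 54 counts. Relative to its mean in TPM it varied least of the 9 measured members, at 2.02 ± 0.286 TPM (SD, n = 6), with replicate 5 below the other libraries. Counting error alone gives a relative SD of 13.8% at this depth, and the measured one in TPM was 14.2%. On other scales Arntl varied more. In log2 CPM (counts scaled to library size, with TMM scaling) it ran from 2.11 in replicate 5 to 3.53 in replicate 1. By edgeR the variation beyond counting error, as a fraction of the mean, was 0.368 for Arntl and 0.307 for Clock. The median over tested genes was 0.383. Background expected from its long span was 36.2 counts in replicate 5, more than its 24 counts, so its level there is not separable from background. In the other 5 libraries expected background was 9.76% of its counts. With expected background subtracted Arntl was at 1.59 ± 0.800 TPM and Clock at 2.10 ± 0.440 TPM, so Arntl no longer varied least.

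Clock, the other partner of the dimer, had 1.74, 2.29, 2.33, 2.80, 3.19 and 1.69 TPM. Replicate 5 was highest and replicates 1 and 6 lowest, with a mean of 2.34 ± 0.586 TPM. It had the most counts of any member, 633 in all, of which expected background was 8.86%.

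Among the repressors, the period gene Per1 was highest. It had 2.96, 3.54, 4.17, 3.56, 1.49 and 3.91 TPM in replicates 1 to 6, and again replicate 5 was lowest. Its mean was 3.27 ± 0.964 TPM, or 3.63 ± 0.454 TPM without replicate 5 (SD, n = 5), and expected background was 2.35% of its counts. Per1 is also an early response gene. Of the 8 genes on the immediate early list, all with a mean of 1 TPM or more, 7 were lowest in replicate 5 as Per1 was, and the list summed to 70.0 to 149 TPM in set B, with 70.0 TPM in replicate 5, and to 110 to 152 TPM in set A. In replicate 5, 6 of the 7 acinar markers were lowest too, and so were 3 of the 9 members with counts, Per1 among them. The share of all genes lowest in that library was not counted. The part of the early response in the Per1 level was not tested.

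Per2, the other measured period gene, had 0.907, 1.59 and 1.10 TPM in replicates 4 to 6 (set B) and 0.385, 0.464 and 0.683 TPM in replicates 1 to 3 (set A). All 3 libraries of set B lay above all 3 of set A, and how many of all genes part this way was not counted. Of 8723 genes tested between the sets, 2258 had an unadjusted edgeR p under 0.05. Per2 was not among them (edgeR unadjusted p = 0.11). Its mean of 0.856 ± 0.449 TPM rested on 9 to 22 counts per library, and expected background was 75.3% of the counts in replicate 5 and 16.0% in the other libraries.

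The cryptochrome gene Cry1 had 0.608, 0.905, 1.20, 1.41, 3.63 and 1.06 TPM, with replicate 5 far above the rest. Expected background was 71.3% of its counts there. Its mean of 1.47 ± 1.09 TPM fell to 1.04 ± 0.304 TPM without that library. Cry2 had 0.295 to 0.511 TPM and a mean of 0.382 ± 0.0758 TPM, or 0.830 ± 0.161 TPM when only exon bases free of other genes count as its length.

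The REV-ERB receptor genes lay close together. Nr1d1 had 0.879, 0.687, 1.47, 1.06, 0.908 and 0.382 TPM, highest in replicate 3 and lowest in replicate 6, from 12, 7, 17, 11, 6 and 4 counts. Nr1d2 had 0.875, 0.559, 1.18, 0.546, 1.12 and 0.922 TPM. Their means were 0.898 ± 0.366 and 0.868 ± 0.270 TPM. Expected background was 6.89% of the counts of Nr1d1 and 22.9% of those of Nr1d2.

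Dbp, a bZIP transcription factor gene driven by the ARNTL and CLOCK dimer, had 3, 1, 1, 0, 1 and 1 counts in replicates 1 to 6. The sum of 7 counts has an exact Poisson 95% interval of 2.81 to 14.4, covering counting error only, and 2.72 of them were expected as background. The level was 0.112 ± 0.0752 TPM, and 0.118 TPM by free exon bases. A count of 0 allows up to 3 counts in a library, so differences between libraries were not detectable for Dbp at this depth.

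**Figure D1:**
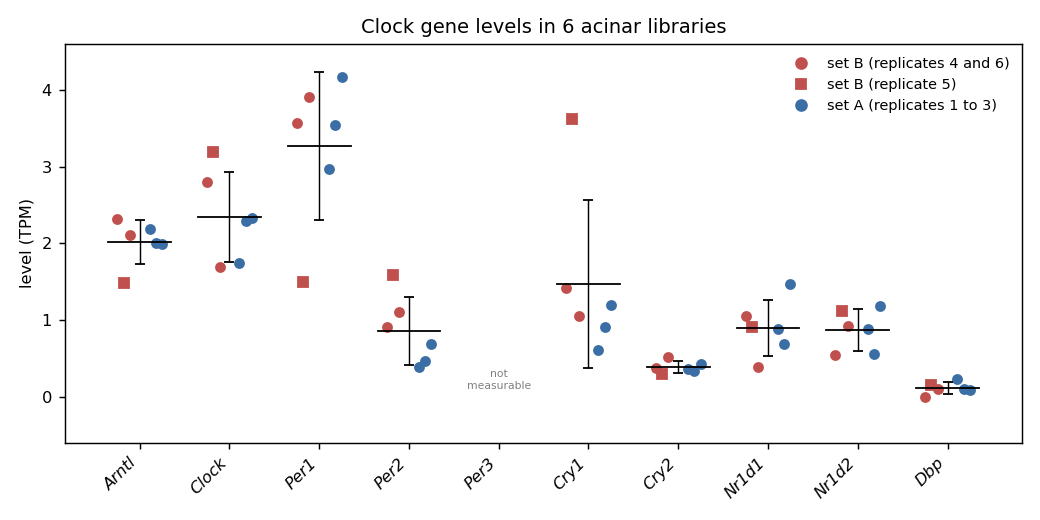
Level of each clock gene in TPM (vertical axis) in every library, with set B left of set A within a gene; the horizontal line is the mean over 6 libraries and the bar its SD. Per1, Clock and Arntl average above 2 TPM, Cry1 is 3.63 TPM in replicate 5, Dbp is near 0, and Per3 is not measurable.

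Ordered by mean TPM, the members ran Per1, Clock, Arntl, Cry1, Nr1d1, Nr1d2, Per2, Cry2 and Dbp. Of the 8 neighbouring pairs in this order, 7 had overlapping ranges. Per1 exceeded Clock in 5 of 6 libraries (log2(TPM + 1) difference 0.34 ± 0.57), Clock exceeded Arntl in 4 of 6 (0.13 ± 0.35) and Arntl exceeded Cry1 in 5 of 6 (0.37 ± 0.65), each a difference within its SD. Cry1 exceeded Nr1d1 in 4 of 6 (0.31 ± 0.56). Nr1d1, Nr1d2 and Per2 differed by 0.01 ± 0.30 and 0.03 ± 0.32, also within it. Per2 exceeded Cry2 in 6 of 6 (0.39 ± 0.35), though their ranges overlapped. Only the last neighbours, Cry2 and Dbp, had ranges apart, with Cry2 higher in 6 of 6 libraries.

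**Figure D2:**
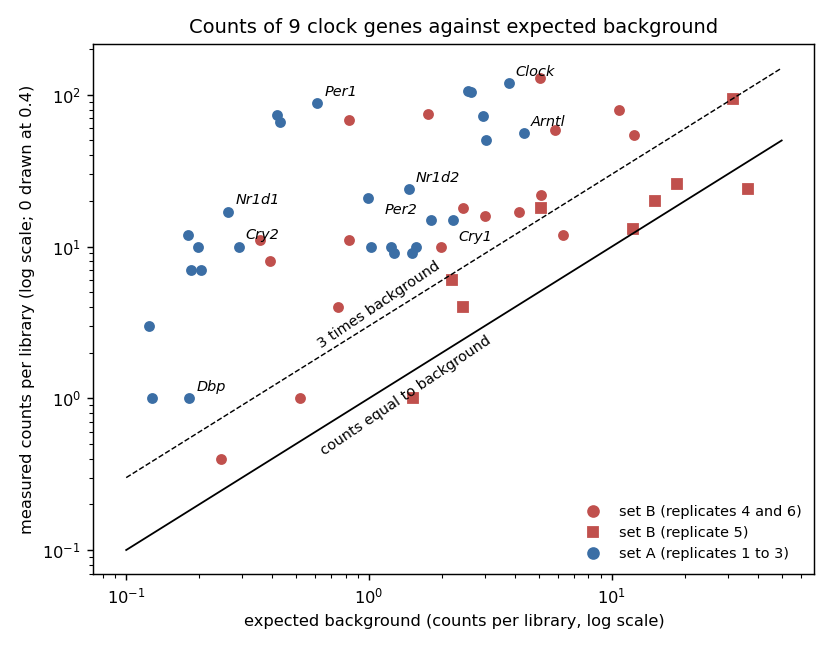
Measured counts (vertical axis, log scale) against expected background counts (horizontal axis, log scale) of 9 clock genes, 1 point per gene and library, with names beside replicate 3; the lines mark counts equal to background and 3 times it. The squares of replicate 5 lie near or below the line of 3 times background, and 2 of them, Arntl at 24 counts and Dbp at 1 count, lie below equality.

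The genes that peak opposite to Arntl were set against it within each library. On the log2(TPM + 1) scale, where differences of low genes are compressed, Dbp lay below Arntl by -1.44 ± 0.20, Nr1d2 by -0.70 ± 0.32 and Nr1d1 by -0.68 ± 0.32 (SD, n = 6), each in 6 of 6 libraries. Of the 8722 other genes past the filter, 21.6% were below Arntl in every library. Per2 was below it in 5 of 6 libraries (-0.73 ± 0.44). Per1 was above it in 6 of 6 (0.47 ± 0.28), by the narrowest margin in replicate 5.

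An exact sign-flip test (two-sided, over libraries) gave p = 0.031 for Per1, Nr1d1, Nr1d2 and Dbp, the smallest that 6 libraries allow, and p = 0.062 for Per2. These are 5 single comparisons, and no adjustment over the members was made. With only exon bases free of other genes as length, Per1 was above Arntl in 5 of 6 libraries (0.44, exact p = 0.062). The length used decides part of them, because counts include introns and Arntl spans 106662 bp. By whole span Nr1d1 was above Arntl in 6 of 6 libraries (0.35, exact p = 0.031), Nr1d2 and Per2 lay at -0.02 and -0.07, and Dbp stayed below at -0.14. With expected background subtracted Nr1d1, Nr1d2 and Dbp were below Arntl in 5 of 6 libraries, since Arntl then stands at 0 in replicate 5.

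Whether phase-opposed genes varied together was read from Pearson's r and Spearman's rho over the 6 libraries, on log2 CPM (counts scaled to library size) with TMM scaling and a prior count of 2, each with the exact two-sided permutation test over 720 orders. Arntl and Nr1d1, the pair taken first, had a positive r of 0.49 (exact p = 0.33) and a rho of 0.83 (exact p = 0.058). With set means removed r was 0.14 (exact p = 0.81 over the 36 orders of libraries within sets), and each set alone holds 3 libraries, too few for a value of its own. Without replicates 1 and 5, the farthest from the Arntl median, r was 0.87, and scaled to the total outside ribosomal RNA it was -0.0441.

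Over the 36 pairs of the 9 members with counts, 2 had an exact Pearson p under 0.05 before adjustment. The smallest p adjusted over the 36 pairs by Benjamini-Hochberg was 0.44 for Pearson (exact permutation) and 0.53 for Spearman, so no pair passed. With set means removed and libraries permuted only within sets, which allows no p below 0.028, the smallest unadjusted exact p of any pair was 0.083. Of the 10 pairs that set Arntl or Clock against Per1, Per2, Nr1d1, Nr1d2 or Dbp, 4 had a negative r and 6 a positive one, with a median of 0.25. Arntl itself had a negative r with 47.2% of the 8722 other genes past the filter. The 11 pairs of genes with the same phase had 4 negative and 7 positive values, with a median of 0.11. Among pairs with both genes past the filter, the opposed ones had a median of 0.28 (8 pairs, 3 negative). Those of the same phase had 0.32 (7 pairs, 3 negative), so the order of the medians turned.

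Arntl and Per1 had the highest r of the opposed pairs, 0.94 (exact p = 0.060, adjusted 0.44), and it rested on replicate 5. Both were lowest in that library, at 2.11 and 1.73 log2 CPM, against 3.05 to 3.53 for Arntl and 3.44 to 3.94 for Per1 in the others. Without it r was 0.24, and without replicates 1 and 5 it was 0.61. With set means removed it was 0.91 (exact p = 0.31 within sets). Arntl and Per2 had an r of -0.68 (exact p = 0.085) and a rho of -0.94 (exact p = 0.017, adjusted 0.53). This r was -0.87 without replicate 5, -0.71 without replicates 1 and 5, -0.37 with set means removed (exact p = 0.17 within sets), and 0.0947 with expected background subtracted. It also depended on the scaling, at -0.90 with the library total alone and -0.0412 with the total outside ribosomal RNA.

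Arntl and Cry1 had an r of -0.85 (exact p = 0.053), or -0.37 without replicate 5, where background of Cry1 was highest, and 0.63 without replicates 1 and 5. With set means removed it was -0.80 (exact p = 0.19 within sets). Clock and Nr1d1 had an r of 0.83 (exact p = 0.040, adjusted 0.44). It was 0.83 without replicate 5, 0.18 without replicates 5 and 6, and 0.76 with set means removed (exact p = 0.14 within sets). The partners Arntl and Clock had an r of 0.33 (exact p = 0.49), which turned to -0.47 with background subtracted. Per1 and Cry2 had the highest r of all pairs, 0.95 (exact p = 0.026, adjusted 0.44). It was 0.56 without replicate 5 and 0.0164 without replicates 3 and 5, and Cry2 did not pass the filter. From 4 to 11 counts per library, Cry2 had a relative SD of 19.8% in TPM, below the 34.6% of counting error alone. With set means removed the r of Per1 and Cry2 was 0.93 (exact p = 0.083 within sets).

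**Figure D3:**
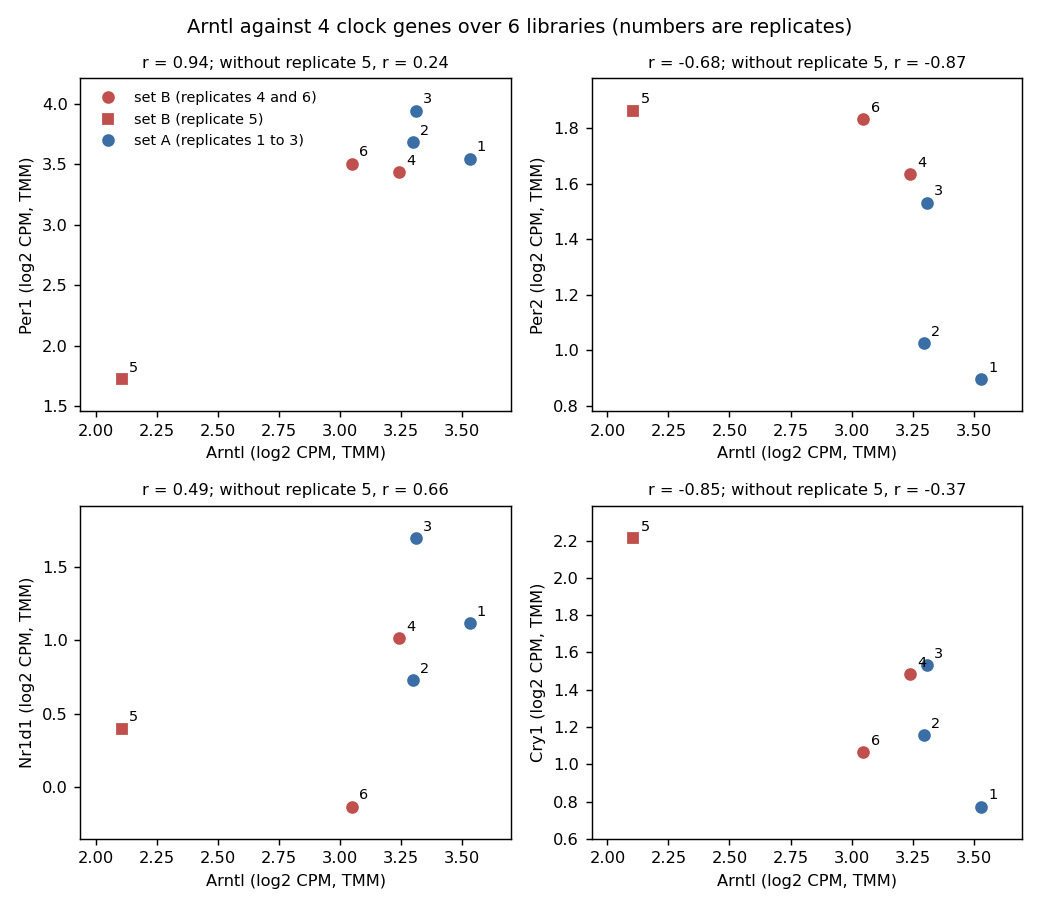
Log2 CPM (TMM) of Per1, Per2, Nr1d1 and Cry1 (vertical axes) against that of Arntl (horizontal axes), 1 point per library with its replicate number. Replicate 5 stands alone at the left, and r with Per1 is 0.94 with it and 0.24 without it, whereas r with Per2 is -0.68 with it and -0.87 without it.

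**Figure D4:**
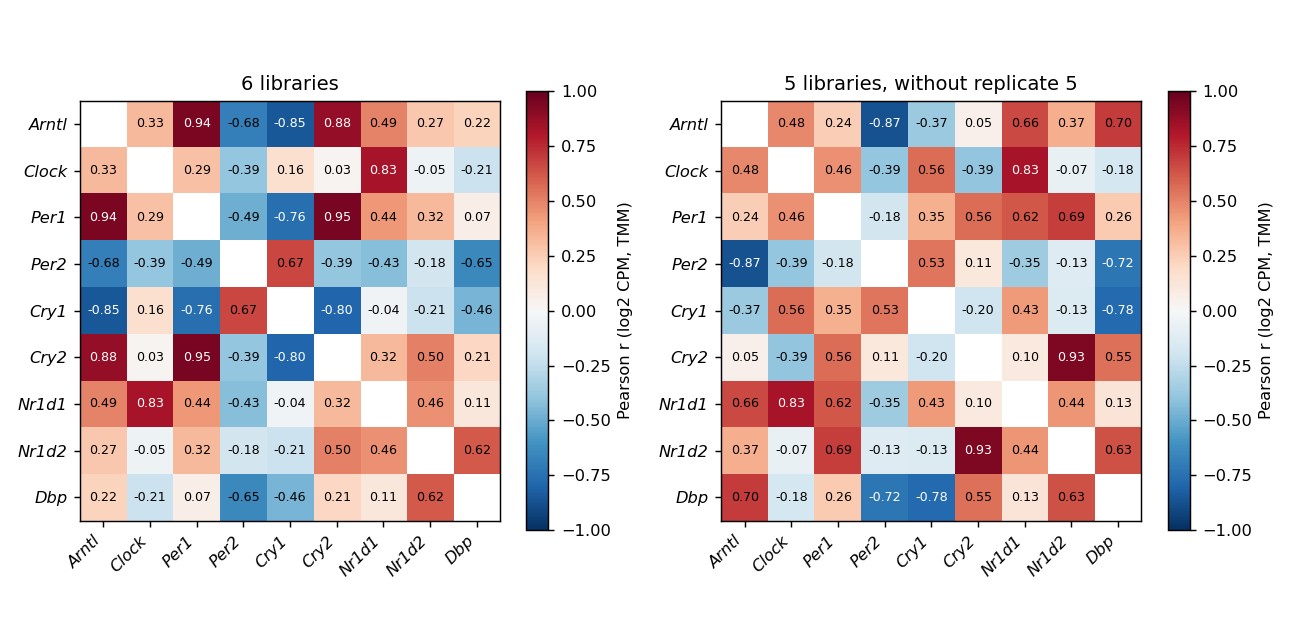
Pearson's r for every pair of the 9 clock genes with counts, on log2 CPM (TMM), over 6 libraries (left) and without replicate 5 (right). The r of Arntl is 0.88 with Cry2 at left and 0.05 at right, and that of Clock with Nr1d1 is 0.83 in both.

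Genes with the pattern most like a member were taken among 1298 protein-coding genes past the filter with a mean of 5 TPM or more. Nearest to Arntl over the 6 libraries were Bhlha15 (Mist1), a transcription factor gene of acinar identity, with r = 0.998, the mitochondrial carrier gene Slc25a39 with r = 0.998 and the keratin gene Krt18 with r = 0.997. Without replicate 5 these r were 0.98, 0.98 and 0.99. Over the 6 libraries, 12.8% of all genes past the filter had an r over 0.9 with Arntl, so a high r with it was common. For Nr1d1 that share was 0.619% and for Dbp 0.321%. The share at the r of the named genes was not counted. Nearest to Nr1d1 were Psma2, a proteasome subunit gene, with r = 0.983, Cdipt with 0.949 and Nr0b2, which encodes the orphan receptor SHP, with 0.928. Nearest to Dbp were Aldh1a7, Acaa2 and Fam162a with 0.863, 0.855 and 0.831, although Dbp itself varied only between 0 and 3 counts. These are descriptions over 6 libraries, with no test.

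Between the sets no member passed the test. By edgeR's quasi-likelihood test on the whole table, 0 of the 7 members tested had an adjusted p under 0.05, with 0 at an unadjusted p under 0.05, and 0 of 8 tested by DESeq2. With ribosomal RNA genes, whose share parts the sets, left out of the table, 0 of 6 tested were called. Of all 8723 genes tested 0.0115% were called higher in set B and 0% lower, and of 11876 tested by DESeq2 4.37% were called higher and 1.73% lower. In log2 fold change of set B over set A, the members had a median of -0.52, and all genes one of -0.004. Of all genes, 2258 had an unadjusted p under 0.05.

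Per2 had 1.20 ± 0.352 TPM in set B and 0.511 ± 0.155 TPM in set A (SD, n = 3 each), a log2 fold change of 0.68 with an SE of 0.38 (edgeR adjusted p = 0.30). Cry1 had 2.03 ± 1.39 TPM in set B and 0.903 ± 0.295 TPM in set A, a log2 fold change of 0.54 with an SE of 0.47 (edgeR adjusted p = 0.50), or 0.10 without replicate 5. Nr1d1 had 0.782 ± 0.354 TPM in set B and 1.01 ± 0.410 TPM in set A, a log2 fold change of -0.89 with an SE of 0.54 (edgeR adjusted p = 0.33). The log2 fold changes of Per1, Nr1d2, Arntl and Clock were -0.66, -0.57, -0.52 and -0.26, with edgeR adjusted p of 0.37 to 0.60. For Clock the direction depends on the scale, as it had 2.56 ± 0.778 TPM in set B and 2.12 ± 0.330 TPM in set A. Without replicate 5 the log2 fold changes of Per1 and Arntl were -0.29 and -0.27.

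The wider clock machinery was read from a list of 24 more genes by role. Of these, 21 had counts, 9 averaged 1 TPM or more and 16 passed the filter, and Ciart, Wee1 and Usp2 lie wholly inside other genes and could not be measured. Their highest level was in replicate 5 for 14 of the 21, and for 3 of the 9 members with counts. The share of all genes highest in that library was not counted, so this is not read as a trait of either list. Replicate 5 had the highest background and 25240 genes with counts, against 17232 to 21659 in the others. Expected background was at least 50% of the counts for 4 of them, namely Npas2, Rorb, Hlf and Timeless.

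Among activators, Arntl2, a relative of Arntl, had 1.13 ± 0.470 TPM (SD, n = 6), or 0.960 TPM without replicate 5. Npas2, which can stand in for CLOCK, had 0.919 to 1.23 TPM in 5 libraries and 5.54 TPM in replicate 5, where expected background was 103% of its counts. The ROR receptor gene Rora, whose product activates Arntl, had 4.58 ± 2.76 TPM, or 3.53 ± 1.15 TPM without replicate 5, but it spans 734461 bp and expected background was 40.6% of its counts. Rorb, another ROR receptor gene, had 0.782 ± 1.24 TPM, or 0.282 ± 0.229 TPM without replicate 5. Of the bZIP genes related to Dbp, Tef had 0.524 ± 0.107 TPM and Hlf 0.321 ± 0.561 TPM, with background at 105% of the counts of Hlf. Without replicate 5 Hlf was at 0.0929 TPM. Nfil3, whose product competes with DBP for D-boxes, had 1.53 ± 0.525 TPM, above Dbp in 6 of 6 libraries.

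Of the further repressors, Bhlhe40 (DEC1) had 0.704 ± 0.525 TPM, Bhlhe41 (DEC2) 0.0678 ± 0.0866 TPM, Cipc, whose product binds CLOCK, 0.888 ± 0.192 TPM and Timeless 0.186 ± 0.224 TPM. Without replicate 5 Bhlhe41 and Timeless were at 0.0398 and 0.102 TPM. Among kinases and ubiquitin ligases that act on PER and CRY proteins, Gsk3b had 2.98 ± 0.579 TPM, the casein kinase gene Csnk1d 2.40 ± 0.678 TPM and Csnk1e 0.502 ± 0.258 TPM. The ligase genes Fbxw11 and Btrc had 4.92 ± 1.56 and 0.886 ± 0.681 TPM, while Fbxl21 had 0.423 ± 0.707 TPM, or 0.138 TPM without replicate 5. Expected background was 32.3% of the counts of Csnk1e and 38.6% of those of Btrc.

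The output genes Klf9 and Tsc22d3, which also respond to glucocorticoids, both averaged above 4 TPM, and Klf9 was the highest of the list. Klf9 had 8.15, 11.0, 10.7, 9.93, 8.03 and 10.4 TPM in replicates 1 to 6. Tsc22d3 (GILZ) had 2.72, 3.86 and 4.39 TPM in replicates 4 to 6 and 5.92, 5.01 and 5.65 TPM in replicates 1 to 3. Its 3 libraries of set B lay below all 3 of set A, a parting that was not counted over all genes. With 2258 of 8723 tested genes at an unadjusted edgeR p under 0.05 between the sets, it is not read as particular to Tsc22d3. Nampt, the NAD salvage enzyme gene, had 0.968 ± 0.403 TPM and Klf10 0.527 ± 0.168 TPM.

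Between the sets, 0 of the 16 tested genes of this list passed in either direction by edgeR, and the median log2 fold change was -0.04. Lowest in adjusted p were Tsc22d3, at 3.66 ± 0.856 TPM in set B and 5.53 ± 0.468 TPM in set A (log2 fold change -1.11, SE 0.29, edgeR adjusted p = 0.089), and Rorb, at 1.43 ± 1.61 TPM in set B and 0.134 ± 0.0750 TPM in set A (2.60, SE 0.74, edgeR adjusted p = 0.093), where expected background was 83.7% of the Rorb counts. Without replicate 5 Tsc22d3 passed (-1.01, edgeR adjusted p = 0.014) and Rorb did not (1.46, edgeR adjusted p = 0.13). Of all 9057 genes tested there, 366 were called higher in set B and 369 lower. Without replicate 4 both passed in edgeR, with adjusted p of 0.045 for Tsc22d3 and 0.0089 for Rorb. In that run 1656 of 9801 genes were called higher in set B and 561 lower. DESeq2 called both, with adjusted p of 0.032 for Tsc22d3 and 0.039 for Rorb, as did edgeR with no filter on low counts, with 0.043 and 0.014. Of all genes, DESeq2 called 4.37% higher and 1.73% lower. With no filter 790 of 29779 were called higher and 203 lower.

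**Figure D5:**
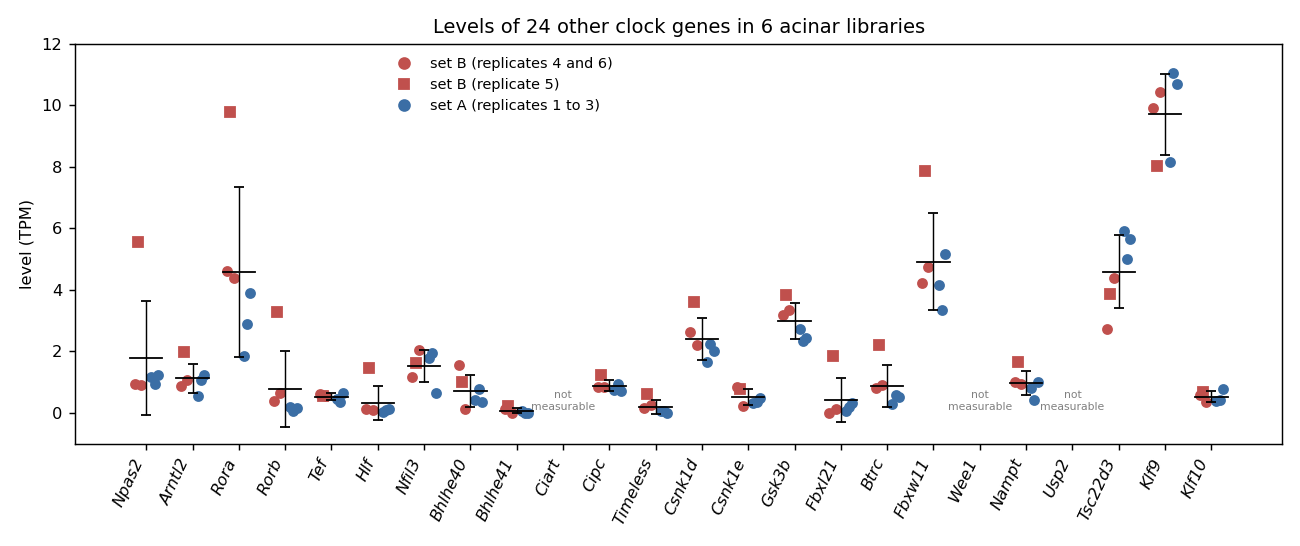
Level in TPM (vertical axis) of 24 further clock genes in every library, with set B left of set A within a gene; the line is the mean over 6 libraries and the bar its SD. Klf9 is highest at 8.03 to 11.0 TPM, and Npas2 and Rora are highest in replicate 5, at 5.54 and 9.80 TPM.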

How the data were processed

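The 6 deposited tables give whole-number raw counts for each gene symbol, not normalized. Per the submitters' processing notes, Trim Galore 0.6.4, FastQC, STAR 2.7.9a, SAMtools, featureCounts and build mm10 were used. The strand setting and the handling of overlapping and multi-mapping reads are not given in the sources used here. The deposited length column, per the file headers another quantity, is the gene span in bp. Exon lengths came from GENCODE M21 (55142 symbols matched), TPM was computed over all genes, and expected background was the density over 1765 receptor genes times the span free of other genes. Set B was tested against set A under R 4.3.3. The tests were the quasi-likelihood test of edgeR 4.0.16 after TMM and filterByExpr (Benjamini-Hochberg at 0.05) and DESeq2 1.42.0. Correlations and their exact permutation tests were computed with numpy 2.4.6, and ranks with scipy 1.17.1, in Python 3.11.15. The set test was tested on simulated data. Members and lists were chosen with earlier results of these data known. Named genes were the 10 members, the 24 of the wider list (some clock genes are not reported here) and the 3 genes most correlated with Arntl, Nr1d1 and Dbp. Other marker lists were ductal (4 of 5 genes at 1 TPM or more), fibroblast and stellate (4 of 5), endothelial (1 of 4) and immune (1 of 4).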

Additional observations from a re-analysis of the deposited data

Results flagged for a closer look

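Replicate 5 stood apart from the other 5 libraries for Cry1, at 3.63 TPM. Its gap to the next library was 0.733 of the whole range, over Dixon's 95% critical value for 6 samples. Such a test flags about 1 in 20 groups by chance, and 9 members were examined in this way, with their 5 differences from Arntl. Expected background in that library was 18.5 of the 26 Cry1 counts.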

How the results depend on the processing

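The 4 members at 1 TPM or more became 1 with whole gene spans as length and 7 with the total outside ribosomal RNA, and ranged from 4 to 5 when a replicate was left out. The 3 genes below Arntl in every library became 1 with whole gene spans, where Nr1d1 minus Arntl turned to 0.35, and 0 with expected background subtracted, and ranged from 3 to 4 without a replicate. With 5 libraries the sign-flip test cannot pass. The r of Arntl and Nr1d1 turned to -0.0441 with the total outside ribosomal RNA and was 0.52 to 0.66 without a replicate. With that total Per1 and Nr1d1 turned to -0.0569 and Arntl and Clock to -0.15. With the library total alone Arntl and Clock turned to -0.20. With expected background subtracted Arntl and Per2 turned to 0.0947, Per1 and Per2 to 0.25 and Arntl and Clock to -0.47. The cause was not tested. No member was called between the sets in any of the 11 alternatives run. Over all genes, 1 higher and 0 lower in set B, of 8723 tested, became 1 and 1 without TMM. They became 790 and 203 of 29779 with no filter on low counts, and 519 and 206 of 11876 with DESeq2. Leaving out a replicate gave 0 to 1656 higher and 0 to 561 lower. Without replicate 5 there were 366 and 369 of 9057 tested, and the highest counts came without replicate 4, of 9801 tested. No paired analysis was possible because the libraries form 1 group. Across its alternatives the adjusted p of Tsc22d3 was 0.014 to 0.30, and that of Rorb 0.0089 to 0.30. Length by exon bases free of other genes, and orders within sets, were chosen after seeing the data. Depth limits Dbp, Cry2 and Nr1d1, at 0 to 17 counts per library.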
